A study of Mus musculus with 16 samples.

Results

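The genes described here are the nuclear genes for the mitochondrial respiratory chain, the set of protein complexes that passes electrons from food molecules to oxygen and uses the energy to make ATP. They were chosen by symbol: the Nduf a, b, c, s and v genes of complex I with the Ndufaf assembly factors, *Sdha* to *Sdhd* of complex II, the Uqcr genes with *Cyc1* and *Cycs* for complex III, the Cox4 to Cox8 genes of complex IV, and the Atp5 genes of complex V. The rule matched 96 symbols, and 2 of them (*Cox8c* and *Ndufs5*) had no read in any of the 16 libraries and were dropped. The 94 members kept, of 24984 genes in the count tables, were 38 complex I subunits, 8 complex I assembly factors, 4 complex II subunits, 10 genes of complex III and cytochrome c, 17 of complex IV and 17 of complex V. The tables held no gene of the mitochondrial genome, so the core subunits it encodes are not part of this account.

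All mice were wild-type C57BL/6 labelled as 24 months old, and the study's methods describe females injected through the tail vein at that age and collected 3 months later. The vector was AAV8, an adeno-associated virus that reaches liver readily, and it carried either an shRNA against *Fos* (shFos) or a non-targeting hairpin (shNT in the labels, NT below). Kidney and liver were sequenced with 4 libraries for each tissue and treatment, so the NT groups are vector-injected old mice and not untreated ones. The labels do not say whether the 4 libraries of a group came from separate animals, and p-values here measure the spread between these libraries. Whole tissue was used, so fewer cells of a type and less RNA per cell cannot be told apart.

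Complex I takes electrons from NADH and complex II takes them from succinate. Both hand them to ubiquinone, complex III passes them on to cytochrome c, complex IV gives them to oxygen, and complex V uses the proton gradient built along the way to make ATP. Kidney tubule cells and hepatocytes are both rich in mitochondria, the proximal tubule above all, where the chain drives the reabsorption of solutes. *Fos* is a subunit of the transcription factor AP-1, whose binding sequence is TGANTCA.

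Libraries held 14194543 to 15534665 counted reads in kidney and 16652150 to 18300277 in liver, and a count of 0 allows up to 0.164 to 0.211 CPM (reads per 1e6 counted reads, at 3 counts). Members took 2.65% to 2.95% of the reads counted in kidney libraries and 0.984% to 1.36% in liver libraries. In the NT kidneys *Fos* itself stood at 5.37 ± 1.02 CPM and in the shFos kidneys at 3.23 ± 0.929 (SD, n = 4 each), a difference of -2.14 CPM (exact two-sided permutation p = 0.0286, the smallest that 70 assignments allow). That p was 0.0571 without NT replicate 1 or any 1 of the shFos replicates. In liver it measured 2.51 ± 1.08 and 1.82 ± 0.637 CPM (exact permutation p = 0.343). Markers of proximal tubule summed to 6284 to 13717 CPM in kidneys, and 7 of the 8 were close to 0 in liver, where *Slc27a2* was also high. Markers of hepatocytes summed to 112419 to 189096 CPM in 7 livers and to 45314 CPM in NT liver replicate 4, against 103 to 446 CPM in kidneys. That NT liver library stood apart from the others of its group across all genes, where a chi-square on the counts, divided by its degrees of freedom, came to at least 334 with that library and to at most 72.5 between any other libraries of 1 group. Among the NT kidneys the same measure was 63.6 to 67.7 with replicate 4 and 7.17 to 13.0 between the other libraries.

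The start regions of a few members are shown because the isoform pairs of complex IV include the widest gaps between tissues, and because most members were higher together in shFos livers. Promoter windows (250 bases before to 50 after the start, RefSeq, GRCm38.p6) were found for 74 of the 94 members. Only the 250 bases before the start were searched for motifs, in members and in all genes. The AP-1 letters TGANTCA, read on both strands, occurred in 6 member windows (8.11%) and in 7.82% of the windows of all 27025 genes. The letters GCGCANGCG, bound by NRF1, a factor known for its part in mitochondrial gene expression, occurred in 15 member windows (20.3%) against 5.86% of all windows. The ETS letters CCGGAAGT occurred in 3 member windows (4.05%) against 3.23%. A match is a run of letters and not a proven site. The stretches below run 5′ to 3′ on the gene's strand, leave out bases that any transcript uses as exon, and give in capitals the letters of an NRF1 match. The first pair are the heart and muscle form of subunit 7a of complex IV, *Cox7a1* (chr7:30183921-30184143, + strand), and its widespread form *Cox7a2* (chr9:79759879-79760103, - strand). The next pair are the widespread *Cox8a* (chr19:7217617-7217866, - strand) and the muscle form *Cox8b* (chr7:140900447-140900696, - strand). *Cox6a1* (chr5:115348982-115349129, - strand) held 3 NRF1 matches, a pair of which overlap on opposite strands, and *Atp5b* (chr10:128083057-128083272, + strand), the most abundant member per length in liver, held none of the 3 motifs in the stretch shown.
Cox7a1: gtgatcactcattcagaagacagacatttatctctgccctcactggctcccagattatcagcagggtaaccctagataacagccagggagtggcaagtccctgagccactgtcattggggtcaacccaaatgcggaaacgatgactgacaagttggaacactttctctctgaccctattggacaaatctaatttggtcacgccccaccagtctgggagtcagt
Cox7a2: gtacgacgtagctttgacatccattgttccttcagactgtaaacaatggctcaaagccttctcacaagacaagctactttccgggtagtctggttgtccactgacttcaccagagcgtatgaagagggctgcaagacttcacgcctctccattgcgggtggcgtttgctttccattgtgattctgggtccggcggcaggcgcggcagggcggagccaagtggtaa
Cox8a: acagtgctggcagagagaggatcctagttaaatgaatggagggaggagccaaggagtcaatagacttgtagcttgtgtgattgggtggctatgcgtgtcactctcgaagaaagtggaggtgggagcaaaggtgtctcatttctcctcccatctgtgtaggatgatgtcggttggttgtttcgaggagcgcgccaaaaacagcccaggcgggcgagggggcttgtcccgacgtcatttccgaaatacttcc
Cox8b: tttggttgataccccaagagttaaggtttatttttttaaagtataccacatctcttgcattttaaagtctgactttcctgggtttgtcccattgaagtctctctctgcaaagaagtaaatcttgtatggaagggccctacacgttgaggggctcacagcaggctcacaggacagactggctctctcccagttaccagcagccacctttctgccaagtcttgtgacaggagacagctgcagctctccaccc
Cox6a1: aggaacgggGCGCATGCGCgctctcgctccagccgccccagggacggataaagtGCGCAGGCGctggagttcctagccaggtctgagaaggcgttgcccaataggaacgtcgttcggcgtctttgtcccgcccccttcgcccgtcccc
Atp5b: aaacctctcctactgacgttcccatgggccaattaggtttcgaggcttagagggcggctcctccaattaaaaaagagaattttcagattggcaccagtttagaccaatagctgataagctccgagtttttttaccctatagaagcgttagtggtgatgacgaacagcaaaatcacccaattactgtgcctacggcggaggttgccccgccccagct

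Neither stretch of the subunit 7a pair and neither of the subunit 8 pair held TGANTCA, GCGCANGCG or CCGGAAGT.

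Levels were compared between genes only per length, as CPM per kilobase of the longest coding transcript. In NT kidney the median member of complex IV stood at 274 and of complex V at 262 CPM per kilobase, against 177 for complex III, 123 for complex II, 115 for complex I and 11.1 for the complex I assembly factors. NT liver had medians of 195, 232, 203, 123, 90.6 and 11.7 in the same order. The assembly factors, which help build complex I and do not stay in it, were thus the lowest class in both tissues. The highest members of NT kidney were *Cox8a* at 1163 ± 103 (SD, n = 4) and *Atp5b*, the catalytic beta subunit of ATP synthase, at 1047 ± 47.5 CPM per kilobase. Those of NT liver were *Atp5b* at 689 ± 36.5 and *Cox4i1*, a regulatory subunit of complex IV, at 602 ± 42.6. In their classes the highest were *Ndufa4* (526 in NT kidney and 559 in NT liver), *Ndufaf8* (27.5 and 31.6) and *Sdhb* (195 and 157), and for complex III *Uqcrb* in NT kidney (439) and *Uqcr11* in NT liver (519). *Ndufa4* carries a complex I name and is now placed with complex IV. The order depends on the transcript taken as length, since *Sdha* ranked 45 of 94 in NT kidney by its longest coding transcript and 6 by the median of its transcripts.

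At the low end, *Cox7b2* had 1 read in 1 NT kidney library and none elsewhere. *Cox6a2*, the heart and muscle form of subunit 6a, stood at 0.821 ± 0.253 CPM per kilobase in NT kidney and at 0.232 ± 0.232 in NT liver. *Cox7b2* was too low to test in kidney, and *Cox7b2*, *Cox4i2*, *Cox6a2*, *Cox6b2* and *Cox8b* were too low in liver, which left 93 members in kidney and 89 in liver. The members left out were all tissue-restricted isoforms of complex IV.

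Between the NT groups, 45 of 93 members were higher in kidney and 3 were higher in liver at an adjusted p under 0.05, where 34.4% of all 15421 genes tested were higher in kidney and 30.2% in liver. Complex IV carried the clearest tissue difference, with 14 of its 16 tested members higher in kidney and a median log2 fold change (kidney minus liver) of 0.60, against 0.05 over all genes. Of complex I 15 of 38 were higher and 1 was lower, of the assembly factors 3 of 8 and 1, of complex II 1 of 4 and 0, of complex III 4 of 10 and 1, and of complex V 8 of 17 and 0. Upper-quartile scaling moved the median of all genes from 0.05 to 0.21 and the members' counts to 61 and 2. With the libraries of replicate 3 left out the counts were 24 and 3. Set between the shFos groups, the same comparison called 21 members higher in kidney and 11 higher in liver. The counts under these other settings are not set here against the share of all genes called in each. They are therefore not read as a result about the members.

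The isoforms of complex IV named for heart, muscle, lung or testis showed the widest gaps. *Cox6b2*, named as the testis form of subunit 6b, measured 15.5, 19.0, 14.3 and 27.2 CPM per kilobase in the NT kidneys and 0.789, 1.53, 0.626 and 0.256 in the NT livers. The groups lay far apart, by 4.57 ± 0.41 on the log2 scale (± SE, adjusted p = 7.35e-08), though the liver values rest on 2 to 11 reads a library. *Cox7a1* measured 26.8, 27.5, 25.5 and 24.0 in the NT kidneys and 3.81, 3.69, 4.38 and 1.85 in the NT livers, a log2 difference of 2.91 ± 0.24 (adjusted p = 2.83e-08). Its widespread partner *Cox7a2* was far more abundant, at 274 ± 28.8 in NT kidney and 181 ± 21.4 in NT liver, and differed less, by 0.60 ± 0.12.

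*Cox8b* measured 37.7, 33.3, 34.2 and 4.67 CPM per kilobase in the NT kidneys, where replicate 4 was far below the other three. In the NT livers it was 8.46, 0.678, 1.83 and 0, and the log2 difference was 3.38 ± 0.92. Markers of striated muscle were low in the same NT kidney, at 1.93 CPM in sum against 7.95 to 10.7 in the other three, and their part in the result was not tested. *Cox4i2*, the lung form of subunit 4, was higher in kidney by 2.92 ± 0.50 and *Cox6a2* by 1.76 ± 0.62, both from a few reads a library in liver. The widespread forms *Cox4i1* (0.60 ± 0.12), *Cox6a1* (0.47 ± 0.14), *Cox6b1* (0.44 ± 0.15), *Cox7b* (0.29 ± 0.12) and *Cox8a* (0.96 ± 0.13) were higher in kidney too. The calls were not equally firm. *Cox4i1* and *Cox8a* were called in 13 of 13 settings of the processing, *Cox6a1* and *Cox6b1* in 10 and *Cox7b* in 6. *Cox7a2l* differed by 0.14 ± 0.15, less than its spread (adjusted p = 0.436).

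**Figure D1:**
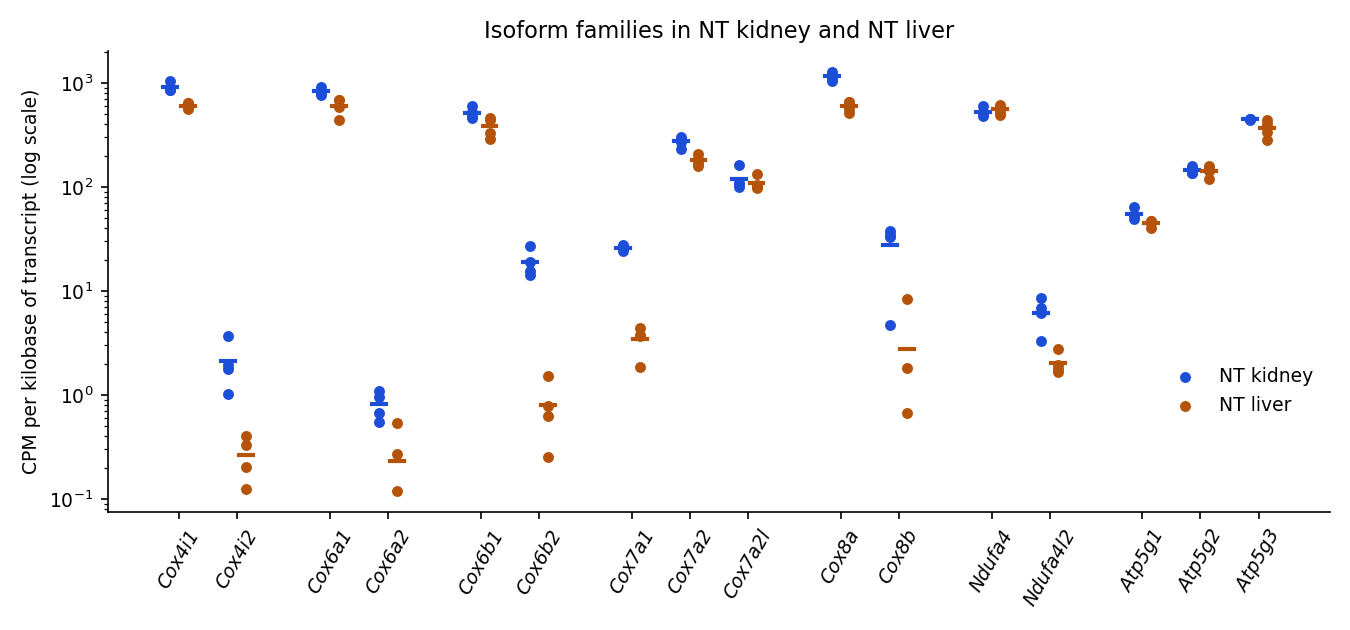
Level of each isoform in NT kidney (blue) and NT liver (brown), in CPM per kilobase of transcript on a log scale, with 1 point per library and a bar at the mean of the 4. *Cox6b2*, *Cox7a1*, *Cox4i2* and *Ndufa4l2* are low in both tissues against their partners and lower in liver, while *Atp5g2* lies at the same height in both. A library at 0 has no point on the log axis (*Cox8b* and *Cox6a2* in liver).

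Outside complex IV the gaps were smaller. *Ndufa4l2*, a relative of *Ndufa4* that hypoxia is known to induce, was higher in kidney by 1.59 ± 0.27 (6.20 against 2.05 CPM per kilobase), and *Ndufa4* itself did not pass the test (-0.09 ± 0.12, adjusted p = 0.546). *Ndufaf5*, an assembly factor that hydroxylates *Ndufs7*, was higher in kidney by 0.96 ± 0.15, and *Uqcr10*, a small subunit of complex III, by 0.69 ± 0.12. Cytochrome c (*Cycs*, 0.60 ± 0.14), cytochrome c1 (*Cyc1*, 0.39 ± 0.10), *Atp5b* (0.60 ± 0.15) and *Sdhb*, the iron-sulfur subunit of complex II (0.31 ± 0.13), were also higher in kidney. The call of *Sdhb* did not hold with a replicate block (edgeR adjusted p = 0.0584) or without replicate 2, 3 or 4 (0.0652, 0.223 and 0.0835). *Sdha*, *Sdhc* and *Sdhd* differed by 0.11 ± 0.16, 0.05 ± 0.12 and -0.12 ± 0.14 and did not pass the test.

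The 3 members higher in liver were *Uqcrq*, *Ndufaf1* and *Ndufa7*. *Uqcrq*, a small subunit of complex III, measured 326, 310, 242 and 286 CPM per kilobase in the NT livers and 127, 139.7, 134 and 121 in the NT kidneys, so that every liver library lay above every kidney library. Its log2 difference was -1.16 ± 0.11 (adjusted p = 2.11e-07). *Ndufaf1*, needed early in the assembly of complex I, differed by -0.67 ± 0.14 and *Ndufa7* by -0.37 ± 0.12. *Ndufaf1* lost its call with a GC and length offset (-0.17, edgeR adjusted p = 0.239), and *Ndufa7* lost its call with upper-quartile scaling (-0.21, 0.112) and without replicate 1 or 2 (0.0905 and 0.0743).

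The c subunit of ATP synthase comes from 3 genes that encode the same mature protein. In NT kidney *Atp5g3* measured 448 ± 5.002, *Atp5g2* 146 ± 11.5 and *Atp5g1* 54.99 ± 6.24 CPM per kilobase, and in NT liver 365 ± 69.98, 143 ± 16.9 and 45.0015 ± 3.44. *Atp5g1* was higher in kidney by 0.29 ± 0.11 (adjusted p = 0.0249), and *Atp5g3* and *Atp5g2* did not pass the test (adjusted p = 0.0733 and 0.820). The call of *Atp5g1* held in 9 of 13 settings of the processing, and its sign turned in 1. The level of *Atp5g1* is given over a longest coding transcript of 4715 bases, against 753 for *Atp5g2* and 723 for *Atp5g3*.

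Knockdown of *Fos* was then compared with NT within each tissue, which asks whether the chain's genes move with an shRNA against this AP-1 subunit in old mice. In kidney no member was called at an adjusted p under 0.05 with edgeR, as was no gene of all 14892 tested (0%), and the smallest adjusted p was 0.0660. At an unadjusted p under 0.05 the shFos kidneys had 15 members higher and 5 lower of 93, where 17.1% of all genes were higher and 14.8% lower at that threshold. DESeq2 called 13 members higher and 4 lower, beside 11.6% of all genes higher and 8.8% lower. All 4 shFos libraries lay above all 4 NT libraries for 7 members (9.16% of all genes) and below them for 5 (8.04%). Set against 93, these counts are near those of all genes in the higher direction and below them in the lower direction. The median log2 fold change (shFos minus NT) of the members was 0.10, against 0.00 over all genes, and 60 members were higher and 33 lower. With each library left out in turn, the median ran from 0.05 (without shFos replicate 4) to 0.11 (without NT replicate 3), and at an unadjusted p under 0.05 there were 10 members higher (without shFos replicate 4) to 27 (without shFos replicate 1) and 4 to 6 lower. Of all genes, 31.9% passed that threshold in either direction in the full fit. Without 1 NT library the share was 23.2% (replicate 2) to 30.9% (replicate 4). Shares at that threshold without an shFos library are not set beside the counts here. The range of counts is therefore not read as a result about the members.

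A single kidney library weighed on these counts. Without shFos replicate 1, edgeR called 15 members higher and 4 lower, and 12.5% of all genes higher and 15.03% lower. Summed over all members, that library held 25878 CPM, within the NT range of 25650.5 to 27140.3, and the other shFos kidneys held 29604, 31208 and 31187. The ratio of the group means was 1.11. Markers of proximal tubule were also higher: all 8 were higher in shFos kidneys, 3 of them at an unadjusted p under 0.05, and their summed level ran from 6284 to 10491 CPM in NT kidneys and from 9992 to 13717 in shFos kidneys. Lowest of each group were NT replicate 4 and shFos replicate 1, and none of the 8 markers was at 0. Thick ascending limb markers were higher as well (3 of 3, 0 at an unadjusted p under 0.05). Their sum was 6327 to 6606 CPM in NT and 5948 to 8099 CPM in shFos kidneys, and shFos replicate 3 was the lowest. Podocyte markers (3 of 3 higher, all at an unadjusted p under 0.05, 266 to 403 against 345 to 720 CPM) and endothelial markers (4 of 4 higher, 3 at an unadjusted p under 0.05, 229 to 301 against 320 to 385 CPM) were higher too. Distal tubule markers were all lower (3 of 3, 1 at an unadjusted p under 0.05, 2005 to 2863 against 1516 to 2293 CPM), as were 3 of 4 collecting duct markers (0 at that threshold, 471 to 771 against 346 to 675 CPM) and 4 of 6 hepatocyte markers (2 at that threshold, 124 to 446 against 103 to 306 CPM). Their part in the result was not tested.

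In liver no member was called with edgeR either, nor any of 13144 genes (0%), and the smallest adjusted p was 0.712. The direction was far less mixed than in kidney, since 87 of 89 members were higher in shFos livers and only *Cox7a2l* and *Ndufaf4* were lower. At an unadjusted p under 0.05 there were 37 members higher and 0 lower, against 3.58% of all genes higher and 3.16% lower. All 4 shFos livers lay above all 4 NT livers for 33 members (2.79% of all genes) and below them for 0 (1.52%). DESeq2 called 2 members higher (*Atp5a1* and *Atp5b*) and 0 lower, beside 0.149% of all genes higher and 0.166% lower. The median log2 fold change was 0.28 for members and -0.01 over all genes.

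Single libraries changed the size of this shift more than its direction. With each library left out in turn, 82 to 87 members were higher, the median ran from 0.21 (without NT replicate 4, the library that stood apart) to 0.35 (without NT replicate 1), and 16 to 49 members passed an unadjusted p under 0.05. The count was 16 without NT replicate 3, 18 without shFos replicate 1 or 3, 21 without shFos replicate 4 and 28 without NT replicate 4. These counts are not set here against the share of all genes in each fit. Summed over members, the NT livers held 12260, 11630, 10096 and 9534 CPM and the shFos livers 13458, 12524, 13657 and 13355. The groups did not overlap, and the ratio of their means was 1.22, with the NT livers spread more widely than the shFos livers. Of the hepatocyte markers 5 of 6 were higher in shFos livers, 2 at an unadjusted p under 0.05, the 4 macrophage markers were all lower (0 at that threshold) and the 5 fibroblast markers all higher (1 at that threshold). Summed macrophage markers ran from 115 to 650 CPM in NT livers and from 141 to 260 in shFos livers, and fibroblast markers from 194 to 307 and from 296 to 402. Their part in the result was not tested.

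**Figure D2:**
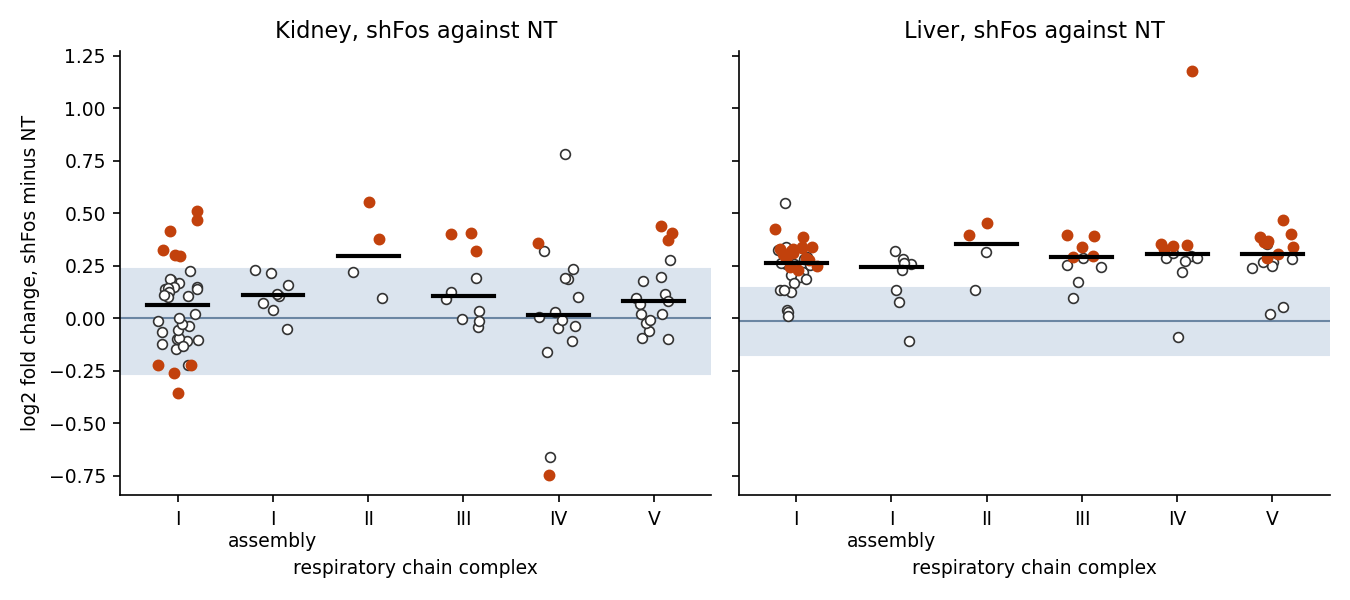
Log2 fold change (shFos minus NT) of each member tested, by complex, in kidney (left) and liver (right), with a filled point at an unadjusted p under 0.05 and a bar at the class median. The blue line and band give the median and the middle 50 percent of all genes tested. In kidney the members lie on both sides of 0, and in liver 87 of 89 lie above it, most of them above the band.

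Complex I, which has the most members, was divided in kidney. Of 38 subunits 21 were higher and 17 lower (median 0.06), with 6 higher and 4 lower at an unadjusted p under 0.05. *Ndufs7*, which holds the last iron-sulfur cluster before ubiquinone, had the smallest p of all members. It measured 189, 221, 196 and 212 CPM in the NT kidneys and 172, 158, 153 and 157 in the shFos kidneys, so every shFos library lay below every NT library. The log2 fold change was -0.36 ± 0.085 (adjusted p = 0.0660). *Ndufs7* lies at chr10:80249121-80256794 on the + strand of mm10 and its exons are shared with no other gene. The other 3 that were lower at that threshold, *Ndufa8* (-0.22), *Ndufb7* (-0.26) and *Ndufa3* (-0.22), are accessory subunits, and they too were below NT in every library. With an offset for GC content and length, described below, the 4 became 0.0003 (*Ndufs7*), -0.0017 (*Ndufa8*), 0.15 (*Ndufb7*) and -0.05 (*Ndufa3*). These 3, and *Ndufs1*, *Ndufa1* and *Ndufb4c* below, were chosen after their values were seen, from the members at an unadjusted p under 0.05.

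*Ndufc2*, an accessory subunit of the membrane arm, measured 121, 119, 133 and 106 CPM in the NT kidneys and 129.9, 174, 180.4 and 198 in the shFos kidneys. Replicate 1 of the shFos kidneys lay within the NT range, and the other three lay well above it. The log2 fold change was 0.51 ± 0.13 (adjusted p = 0.0660). *Ndufs1* (0.42), a core subunit of the arm that takes up NADH and passes electrons on, and the small subunit *Ndufa1* (0.33) were above NT in every library. *Ndufb4c* (0.47) was above NT in every library as well, but it is a single exon of 390 bases that resembles a copy of *Ndufb4*, so its counts are uncertain. The sum over complex I was 6923 ± 173 CPM in NT kidneys and 7201 ± 462 in shFos kidneys.

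In liver all 38 complex I subunits were higher in shFos, with 16 at an unadjusted p under 0.05, 14 above NT in every library and a median of 0.26. *Ndufs7* again had the smallest p of its class, in the opposite direction to kidney. It measured 73.5, 77.4, 64.2 and 64.0 CPM in the NT livers and 104.5, 79.8, 94.8 and 95.2 in the shFos livers. The groups did not overlap, the log2 fold change was 0.42 ± 0.12 and the adjusted p was 0.714. The lowest fold change of the class was that of *Ndufa7* (0.01 ± 0.13). The sum over complex I was 2971 ± 385 CPM in NT livers and 3542 ± 142 in shFos livers.

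Of the 8 assembly factors 7 were higher in kidney, with a median of 0.11 and none at an unadjusted p under 0.05. The smallest p values were those of *Ndufaf2*, a chaperone for the late steps, at 17.2 ± 0.832 CPM in NT and 19.97 ± 2.48 CPM in shFos kidneys, and of *Ndufaf6*, at 16.7 ± 2.38 and 19.6 ± 2.17 CPM. *Ndufaf2* shares 65.6% of its exon bases with a lincRNA on the opposite strand, *B230220B15Rik*, which counting without strand could not tell from it. In liver 7 were higher (median 0.24, none at an unadjusted p under 0.05), led by *Ndufaf5* at 4.42 ± 0.817 CPM in NT and 5.53 ± 0.447 CPM in shFos livers.

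Complex II, which is also an enzyme of the citric acid cycle, had the highest class median in both tissues, 0.30 in kidney and 0.36 in liver. All 4 subunits were higher in shFos in each. *Sdha*, the flavoprotein that oxidizes succinate, measured 634, 570.1, 616 and 534 CPM in the NT kidneys and 674, 902, 1010.1 and 869 in the shFos kidneys. Every shFos kidney lay above every NT kidney, replicate 1 by the least. The log2 fold change was 0.55 ± 0.14 (adjusted p = 0.0660). *Sdha* lies at chr13:74322254-74350280 on the - strand of mm10. In the NT livers it measured 306, 319, 283 and 191 CPM and in the shFos livers 361, 354, 314 and 336, and the groups overlapped (0.31 ± 0.18).

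*Sdhd*, a membrane anchor, measured 187, 179, 177 and 173 CPM in the NT kidneys and 174, 239, 269 and 249 in the shFos kidneys, where only replicate 1 lay within the NT range. In the NT livers it was 108, 110.0, 100.2 and 73.2 and in the shFos livers 150.4, 119.9, 128 and 139, with no overlap. The log2 fold changes were 0.38 ± 0.13 and 0.46 ± 0.15. *Sdhb* gave 0.22 ± 0.11 and 0.40 ± 0.14, and *Sdhc*, the other anchor, gave 0.10 ± 0.10 and 0.13 ± 0.13. The sum over complex II was 1440 ± 93.3 CPM in NT and 1845 ± 234 CPM in shFos kidneys, a ratio of 1.28, and 674 ± 116 and 834 ± 45.1 CPM in the livers, a ratio of 1.24.

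For complex III and its carrier 7 of 10 were higher in shFos kidneys (median 0.11), 3 at an unadjusted p under 0.05, and 10 of 10 in shFos livers (median 0.29), 5 at that threshold. *Uqcrc2*, a core protein, measured 409, 393, 415 and 328 CPM in the NT kidneys and 411, 517, 577 and 540.5 in the shFos kidneys. Only replicate 1 of the shFos kidneys overlapped with NT (0.41 ± 0.13, adjusted p = 0.0834). Its exons share 19.7% of their bases with *Pdzd9* on the opposite strand. *Uqcrfs1*, the Rieske iron-sulfur protein, measured 290.4, 272, 295 and 237 in the NT kidneys and 285, 353, 364 and 364 in the shFos kidneys (0.32 ± 0.12), and again replicate 1 stood with the NT libraries.

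*Cycs*, cytochrome c, measured 226, 211, 221 and 183 CPM in the NT kidneys and 197, 278, 313 and 321 in the shFos kidneys (0.40 ± 0.16). In the NT livers it was 74.7, 60.1, 62.8 and 81.4 CPM and in the shFos livers 89.9, 84.8, 103 and 90.1, so that the liver groups did not overlap (0.40 ± 0.13, adjusted p = 0.714). The fold changes of the tissues were close, while only the liver groups were apart in every library. *Cyc1* gave 0.19 ± 0.10 in kidney and 0.34 ± 0.12 in liver.

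Complex IV had the lowest median in kidney, 0.02, with 9 of 16 tested members higher and 7 lower. Its kidney sum was 5692 ± 195 CPM in NT and 5763 ± 361 CPM in shFos, a ratio of 1.01. *Cox6b2* measured 12.9, 15.97, 11.8 and 21.98 CPM in the NT kidneys and 11.2, 9.31, 10.01 and 6.76 in the shFos kidneys. Every shFos library lay below every NT library, at -0.75 ± 0.23 (adjusted p = 0.0764). *Cox7c*, a small subunit, measured 396, 402, 441 and 359 in NT and 416, 504, 557 and 569.6 in shFos (0.36 ± 0.12), and it was the only other member of the class at an unadjusted p under 0.05.

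The other isoforms of kidney complex IV did not pass. Among the widespread forms, *Cox4i1* (-0.04 ± 0.11), *Cox6a1* (0.01 ± 0.10), *Cox6b1* (-0.05 ± 0.11), *Cox7a2* (0.10 ± 0.12), *Cox7a2l* (0.03 ± 0.16) and *Cox8a* (-0.16 ± 0.11) lay within 0.2 of 0, and *Cox7b* stood at 0.23 ± 0.14. With the GC and length offset *Cox8a* (0.23) and *Cox4i1* (0.32) turned to higher. The scarce forms *Cox4i2* (-0.66 ± 0.41), *Cox6a2* (0.78 ± 0.35) and *Cox8b* (0.32 ± 0.71) moved more, within wide errors. *Cox8b* was the most uneven member across the kidney libraries. It measured 19.3, 17.2, 17.4 and 2.32 CPM in NT and 15.4, 39.2, 4.08 and 11.3 in shFos, from 36 to 590 reads, and the groups overlapped widely. Striated muscle markers summed to 7.95, 9.50, 10.7 and 1.93 CPM in the same NT kidneys and to 10.5, 12.6, 2.36 and 13.6 in the shFos kidneys, and fat markers were highest in shFos replicate 2 (337 CPM against 18.2 to 90.5 in the others). Their part in the result was not tested. *Cox7a1*, which differed so much between tissues, was 17.8 ± 1.33 CPM in NT and 20.3 ± 4.77 in shFos kidneys.

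In liver 11 of 12 complex IV members tested were higher (median 0.30), 5 at an unadjusted p under 0.05. *Cox7a1* had the smallest p of all members. It measured 1.32, 1.27, 1.51 and 0.635 CPM in the NT livers and 2.97, 2.78, 3.05 and 1.91 in the shFos livers, where every shFos library lay above every NT library. The log2 fold change was 1.18 ± 0.30 and the adjusted p 0.712, on 12 to 53 reads a library. Its whole range in liver lay below the lowest kidney library. Among widespread forms, *Cox7a2* (0.33 ± 0.13) and *Cox7b* (0.35 ± 0.11) were at an unadjusted p under 0.05, and *Cox4i1* (0.22 ± 0.13), *Cox6a1* (0.29 ± 0.17), *Cox6b1* (0.31 ± 0.17) and *Cox8a* (0.28 ± 0.14) were not. *Cox7a2l* was 87.1 ± 12.6 CPM in NT and 82.0 ± 2.14 in shFos livers. The sum over complex IV was 1998 ± 253 CPM in NT and 2424 ± 166 in shFos livers, a ratio of 1.21.

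Complex V, ATP synthase, had 12 of 17 members higher in shFos kidneys (median 0.08), 3 at an unadjusted p under 0.05, and all 17 higher in shFos livers (median 0.31), 9 at that threshold and 8 above NT in every library. In kidney the alpha subunit *Atp5a1* measured 1704, 1643, 1818 and 1609.6 CPM in NT and 1831, 2399.6, 2568 and 2379 in shFos. All shFos libraries lay above all NT libraries, replicate 1 only just (0.44 ± 0.13, adjusted p = 0.0767). In liver it measured 627, 635, 565 and 536 CPM in NT and 784, 756, 751 and 797 in shFos (0.39 ± 0.14). *Atp5a1* and *Ndufs1* were among the members whose shFos libraries all lay above NT in both tissues, and *Ndufs7* was below in kidney and above in liver.

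The beta subunit *Atp5b* measured 1010.4, 914, 942 and 883 CPM in the NT livers and 1209.95, 1200.4, 1218 and 1181 in the shFos livers, with no overlap and little spread in shFos (0.36 ± 0.14). In kidney it measured 2930.5, 2802, 2965 and 2629.7 in NT and 2952, 3813, 3957 and 3952 in shFos (0.37 ± 0.14), with replicate 1 inside the NT range. *Atp5f1*, of the stalk that holds the catalytic head in place, measured 449, 405, 435 and 382 in the NT kidneys and 439, 553, 621 and 597 in the shFos kidneys (0.40 ± 0.13). *Atp5a1*, *Atp5b* and *Atp5f1* were the 3 members of the class at an unadjusted p under 0.05 in kidney, with transcripts of 2674, 1916 and 1604 bases.

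Of the c-subunit genes, *Atp5g1* had the smallest p of the class in liver, at 159, 152, 134 and 158 CPM in NT and 193, 176, 206 and 200.5 in shFos, with every shFos library above every NT library (0.36 ± 0.12, adjusted p = 0.714). *Atp5g3* gave 0.35 ± 0.16 and *Atp5g2* 0.02 ± 0.11 in liver. In kidney they gave 0.02 ± 0.11 (*Atp5g1*), 0.20 ± 0.11 (*Atp5g3*) and 0.02 ± 0.08 (*Atp5g2*). *Atp5g2* was thus close to 0 in both tissues. The sum over complex V was 9248 ± 323 CPM in NT and 11001 ± 1170 in shFos kidneys, a ratio of 1.19, and 3568 ± 318 and 4473 ± 136 CPM in the livers, a ratio of 1.25 with no overlap.

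**Figure D3:**
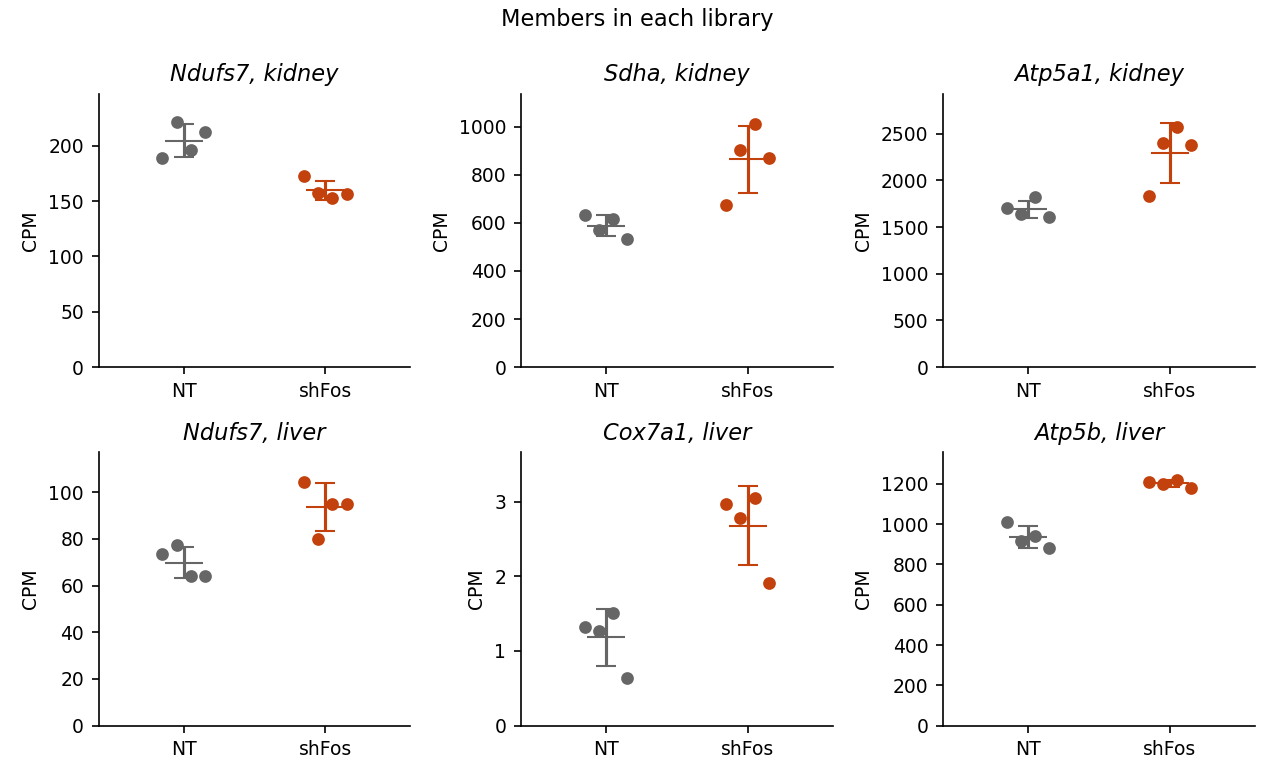
Level in CPM of 6 members and tissues in each library, with 1 point per library and the mean ± SD of the 4 libraries of each group (NT grey, shFos orange). *Ndufs7* is lower than NT in every shFos kidney and higher in every shFos liver, and in *Sdha* and *Atp5a1* the lowest shFos kidney is replicate 1.

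**Figure D4:**
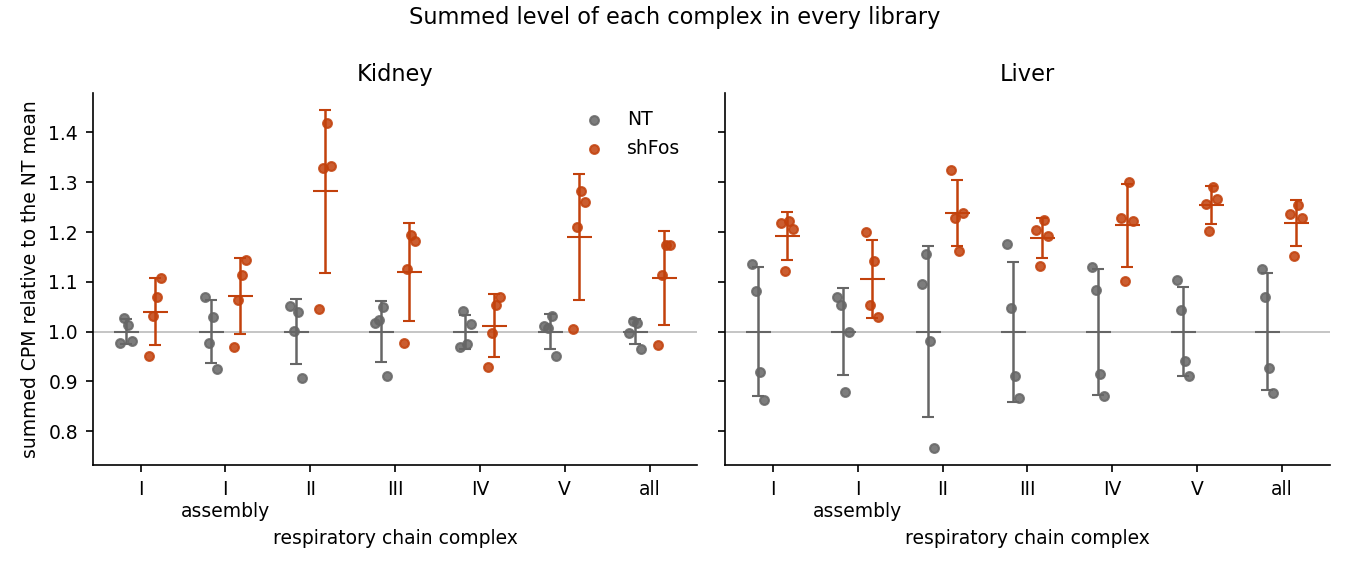
Summed CPM of each class in each library, divided by the mean of the 4 NT libraries of that tissue, with the mean ± SD (NT grey, shFos orange). In kidney complexes II and V lie highest over NT (means of 1.28 and 1.19) and complex IV lies near 1, and in liver every class lies between 1.11 and 1.25.

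Set side by side, the 89 members tested in both tissues fell into 56 that were higher in shFos in both, 31 that were lower in kidney and higher in liver, 2 that were higher in kidney and lower in liver, and 0 that were lower in both. Across these 89 genes, which are not independent replicates and share their libraries, the log2 fold changes of the tissues had Pearson r = 0.24 and Spearman rho = 0.29. At an unadjusted p under 0.05 in each, 9 members were higher in both.

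The difference between the tissues' responses was tested in a fit of all 16 libraries. No member was called (edgeR, smallest adjusted p 0.179), as was no gene of 15421 (0%). At an unadjusted p under 0.05 the response was lower in kidney than in liver for 20 members and higher for 0, where 16.1% of all genes passed in either direction. With the libraries of 1 replicate number left out, 13 (replicate 1), 11 (replicate 2), 3 (replicate 3) and 9 members (replicate 4) were lower at that threshold and 0 higher. Those counts are not set here against the share of all genes in each fit. The fold change in kidney was below that in liver for 76 of 93 members, with a median difference of -0.19 against 0.00 over all genes. Complex II differed least (-0.08, 0 of 4 at an unadjusted p under 0.05) and complex IV most (-0.29, 4 of 16). DESeq2 called 4 members, *Ndufs7*, *Ndufa12*, *Atp5e* and *Atp5d*, all with a lower response in kidney. That count is not set here against the share of all genes called by DESeq2, so it is not read as a result about the members.

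*Ndufs7* had the smallest p here too, with a difference of -0.80 ± 0.15 between the kidney and the liver response (adjusted p = 0.179). *Ndufa12*, an accessory subunit of complex I, measured 168, 180.9, 157 and 160.5 CPM in NT and 158, 153, 154 and 158 in shFos kidneys, and 44.2, 43.8, 35.3 and 36.8 in NT and 48.6, 48.3, 51.8 and 52.9 in shFos livers. Kidney groups overlapped and liver groups did not, and the difference of the responses was -0.45 ± 0.12. *Atp5e*, the epsilon subunit of the ATP synthase head, differed by -0.48 ± 0.14, from 156 ± 11.9 to 146 ± 3.97 CPM in kidney and from 75.5 ± 10.1 to 97.4 ± 5.83 in liver.

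Members are short: their median transcript was 918 bases against 3070 for the other genes tested in kidney, and 54.8% of them were under 1000 bases against 5.45%. Their GC content was ordinary, at a median of 51.0% against 50.2%. Whether fold changes followed length or GC was therefore tested without the members. For each library the slope of log2 CPM (relative to the tissue mean) on log2 length and on GC was taken over 14707 other genes in kidney and 12986 in liver. In kidney the length slope was -0.0380 ± 0.0129 per doubling of length in NT (SD, n = 4) and 0.0380 ± 0.0214 in shFos. It was negative in each NT kidney and positive in each shFos kidney (difference 0.0759, exact two-sided permutation p = 0.0286, the smallest possible). The GC slope was 0.106 ± 0.0485 per 10 percentage points in NT and -0.106 ± 0.142 in shFos kidneys (difference -0.213, exact permutation p = 0.0571), and shFos replicate 1, at 0.0732, stood among the NT libraries. In liver neither slope differed beyond the spread (length difference -0.00769, exact permutation p = 0.771, and GC difference -0.00684, p = 0.743).

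In kidney, therefore, the short genes that are not members had lower fold changes. Under 750 bases their median was -0.24 and 24.9% were higher in shFos, while among the longest genes the median was 0.09 and 59.4% were higher. Members of the same lengths lay above these genes: the 35 under 750 bases had a median of 0.08, and 57.1% of them were higher. With rising length the share of members higher went from 57.1% through 57.6% and 78.9% to 100% (6 members). Their medians were 0.08, 0.02, 0.18 and 0.12 in that order. By GC content the members fell with the other genes. Their medians were 0.17 (14 members under 45% GC), 0.15 (45% to 50%), 0.10 (50% to 55%) and -0.04 (26 members over 55%). The other genes went from 0.19 through 0.08 and -0.04 to -0.20, so members lay below them only under 45% GC. Across the 93 members the kidney fold change had r = -0.39 and rho = -0.44 with GC and r = 0.22 with log2 length, as a description. For the other genes r was -0.32 with GC and 0.23 with log2 length.

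The length and GC of each member gave a predicted kidney median of -0.21 where 0.10 was observed, and 87 of 93 members lay above their prediction, by a median of 0.25. The 15 members higher at an unadjusted p under 0.05 had a median GC of 48.6%, and the 5 lower (*Ndufs7*, *Cox6b2*, *Ndufa8*, *Ndufb7* and *Ndufa3*) had 55.7% GC and lengths of 515 to 983 bases. With both trends removed by an offset in the fit, 37 members were higher and 0 lower at an unadjusted p under 0.05, 77 of 93 were higher and the median was 0.22. Of all genes 27.9% passed that threshold in either direction in this fit. No gene was called with edgeR, and the smallest adjusted p of a member was 0.0907. All of the 15 kept their sign. Of the 5, *Cox6b2* went from -0.75 to -0.44, *Ndufa3* from -0.22 to -0.05, *Ndufa8* from -0.22 to -0.0017, *Ndufs7* from -0.36 to 0.0003 and *Ndufb7* from -0.26 to 0.15, so the lower level of the 4 complex I subunits in kidney rests on how length and GC are treated. The difference of the tissue responses also shrank with this offset, from a median of -0.19 to -0.04. In liver the predicted median was -0.04 against 0.28 observed, and the offset left 84 of 89 members higher with a median of 0.26.

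**Figure D5:**
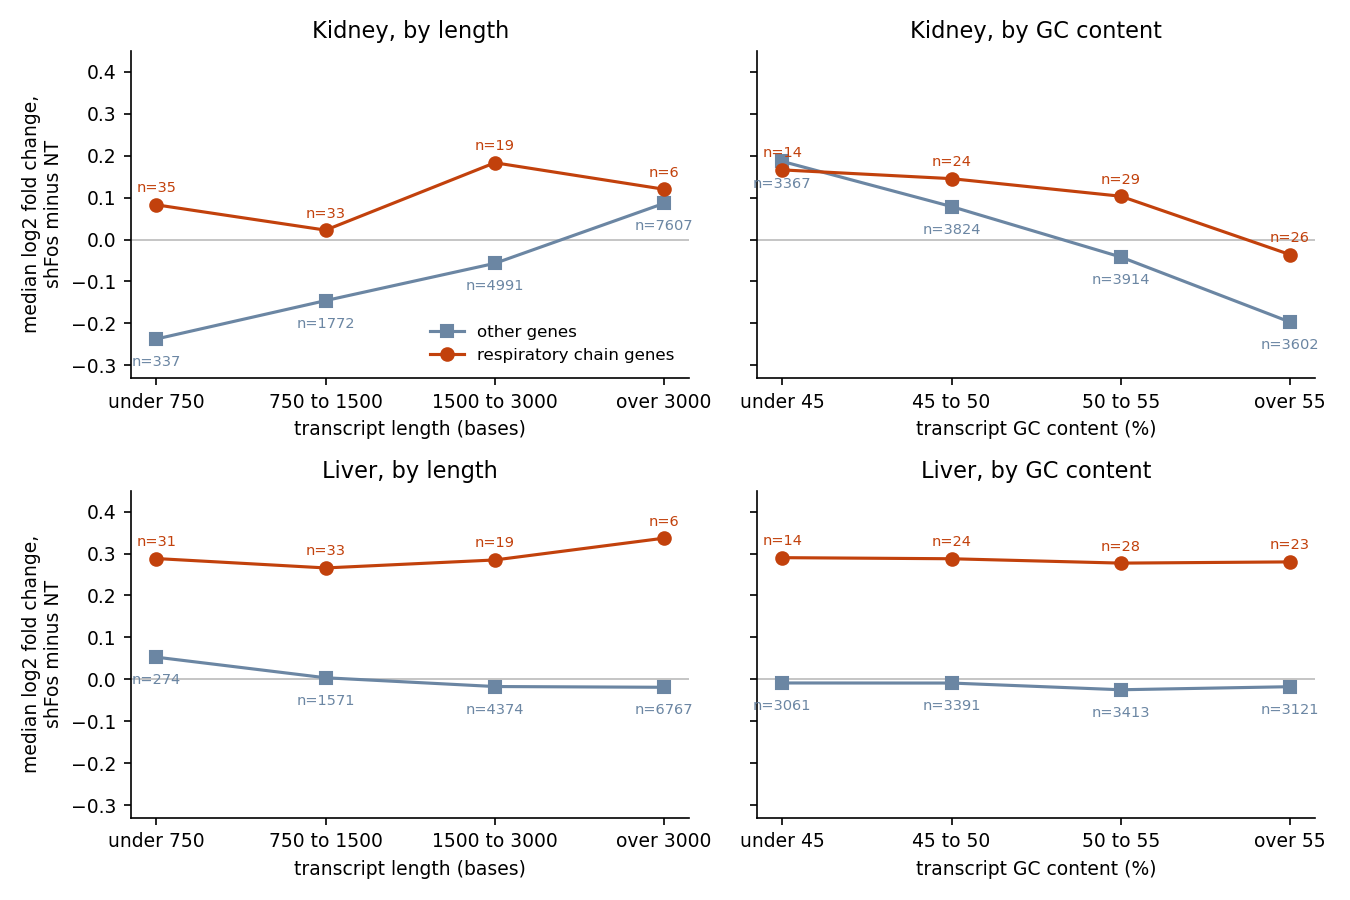
Median log2 fold change (shFos minus NT) of members (orange) and of the other genes (blue) by transcript length in bases and by GC content in percent, in kidney (top) and liver (bottom), with the number of genes at each point. In kidney the other genes climb with length and drop with GC, members lie above them in all bins but that under 45% GC, and in liver both lines are nearly flat and members lie above in every bin.

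Other mitochondrial genes were counted in the same fits, and edgeR called none of them in either tissue. The 13 citric acid cycle enzymes were all higher in shFos in both tissues, with 8 at an unadjusted p under 0.05 and a median of 0.32 in kidney, and 4 and 0.27 in liver. Of 10 genes for the synthesis of ubiquinone, 8 were higher in kidney (4 higher and 1 lower at an unadjusted p under 0.05, median 0.16) and 9 in liver (3 and 0, median 0.17). The 78 genes of the mitochondrial ribosome were more mixed, with 45 higher in kidney (10 higher and 7 lower at that threshold, median 0.04) and 60 in liver (4 and 0, median 0.08). Assembly factors that the symbol rule leaves out had 25 of 35 higher in each tissue, with 8 higher and 2 lower at an unadjusted p under 0.05 in kidney (median 0.08) and 0 and 1 in liver (median 0.07). In liver the citric acid cycle list was thus close to the chain's own median of 0.28, and the ribosome and assembly lists were lower. DESeq2 called none of these genes in liver, and in kidney it called 7 citric acid cycle genes higher and 0 lower, 3 and 1 for ubiquinone, 6 and 3 of the ribosome and 5 and 1 of the assembly factors.

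Regulators of mitochondrial gene expression showed no common direction, with 9 of 14 higher in kidney (1 higher and 2 lower at an unadjusted p under 0.05) and 6 of 14 in liver (0 and 1), and DESeq2 called 1 higher and 1 lower in kidney and 0 in liver. *Ppargc1a*, a coactivator that drives mitochondrial biogenesis, was 118 ± 20.5 CPM in NT and 120.3 ± 14.7 in shFos kidneys, and 12.1 ± 3.78 and 14.9 ± 4.07 in the livers. *Gabpa*, the ETS factor that binds CCGGAAGT, was 47.1 ± 2.84 CPM in NT and 63.1 ± 7.69 in shFos kidneys (0.42 ± 0.10, adjusted p = 0.0660), and 43.95 ± 3.996 and 45.6 ± 4.73 in the livers. *Nrf1* gave -0.22 ± 0.11 in kidney and -0.13 ± 0.16 in liver, *Esrra* 0.15 ± 0.11 and 0.16 ± 0.12, and *Tfam*, which packs and transcribes mitochondrial DNA, 0.22 ± 0.13 and 0.09 ± 0.09.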

How the data were processed

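RNA was extracted from frozen kidney and liver of old mice, and 16 libraries were sequenced, 4 for each tissue and vector. The authors trimmed reads with Trimmomatic 0.39, aligned them to mm10 with HISAT2 2.2.1 and counted them per gene with HTSeq 0.12.4 without regard to strand. The deposited tables hold raw read counts of 24984 genes, with no normalization. Summary lines for unassigned reads were left out (no gene feature: 13.4% to 26.7% of the table's total). The members and the gene lists were chosen with earlier results of these data known.

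Counts were tested in R 4.3.3 with edgeR 4.0.16 (quasi-likelihood test, TMM scaling, the default filter on low counts, Benjamini-Hochberg adjustment over all genes tested). Treatment was tested within each tissue, and NT kidney against NT liver and the difference of the responses in 1 fit of 4 groups. Log2 fold changes are given with their standard error and levels as mean ± SD. DESeq2 1.42.0, other scalings and filters, a replicate block, offsets for GC content and length (lowess span 0.3) and each library left out were alternatives. CPM within a tissue come from TMM over its 8 libraries, and CPM per kilobase from TMM over all 16, divided by the longest coding transcript of GENCODE M21 (98.2% of symbols matched, 94 of 94 members). Same-numbered NT kidney and NT liver libraries deviated together (correlations of 0.12 to 0.40, 3 of 4 best with their own number). Those of shFos did so less (0.04 to 0.16, also 3 of 4 best with their own number). The labels do not say that a number marks an animal. Slopes used log2 CPM with a prior count of 2. The floors given for a count of 0 cover counting error only, while SDs and standard errors include the spread between libraries. The edgeR and DESeq2 fits within a tissue, the GC offset, the GC and length offset and the GC slope were tried first on simulated kidney libraries. The other statistics were not. Of the members, 32 share an exon base with another gene, and counts without strand cannot separate opposite genes. Genes named were, by class, the smallest p (2 in kidney, 1 in liver), the largest tissue difference in each direction and the highest level per length, the 3 smallest p for the difference of the responses, the 2 highest and lowest levels, all isoform families, *Sdha* to *Sdhd*, *Cycs*, *Cyc1*, members that passed no filter, *Fos* and the regulators given.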

Additional observations from a re-analysis of the deposited data

Results flagged for a closer look

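Of 104 groups of 4 libraries tested for a library far from the other three, 3 held one, where chance gives about 1 in 20 (5.2). *Uqcrfs1* measured 285 CPM in shFos kidney replicate 1, against 353 to 364 in the other shFos kidneys. *Ndufaf6* measured 5.82 CPM in NT liver replicate 4, against 10.3 to 11.1. The sum over complex I was 3331 CPM in shFos liver replicate 2, against 3585 to 3633.

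The response of *Ndufs7* was lower in kidney than in liver by -0.80 on the log2 scale: every shFos kidney lay below every NT kidney and every shFos liver above every NT liver. The test of that difference gave an adjusted p of 0.179 with edgeR over all genes, 0.0297 without the libraries of replicate 1 and 0.00044 with DESeq2. With an offset for GC content and length the kidney fold change of *Ndufs7* went from -0.36 to 0.0003.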

How the results depend on the processing

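In kidney DESeq2 called 17 members, beside 20.4% of all genes, and the fit of all 16 libraries called 3, beside 6.45%. Fits that left out 1 library called 0 to 19 members (19 without shFos replicate 1, with the shares of all genes given above). The kidney median was 0.23 with a length offset and 0.22 with a GC and length offset, where *Ndufs7* turned to 0.0003. In liver DESeq2 called 2 members, beside 0.149% of all genes higher and 0.166% lower. DESeq2 called 4 members for the difference of the responses, not set here against a share of all genes. Leaving out a replicate number gave 0 to 1 there and 27 to 45 in NT kidney against NT liver (27 without replicate 3). These counts too are not set here against a share of all genes. The median level per length went to 192 in NT kidney and 158 in NT liver CPM per kilobase with the median transcript. With 1 library left out, the *Fos* difference in kidney ran from -2.52 to -1.69 CPM (exact permutation p = 0.0286 to 0.0571), the kidney GC slope difference from -0.273 (without shFos replicate 1, exact permutation p = 0.0286) to -0.169, and the liver slope differences from -0.0255 to 0.00667 for length (0.00445 without NT replicate 3, 0.00667 without NT replicate 4, 0.00485 without shFos replicate 1) and from -0.0147 to 0.00383 for GC (0.00383 without NT replicate 4, 0.00338 without shFos replicate 3). For the 30 values of genes named by smallest p or largest tissue difference, other settings gave 1 reversal (*Ndufs7*, above), 26 gains of a call and 9 losses. Other members with smaller or less certain kidney fold changes turned under at least 1 setting, among them *Ndufb7*, *Cox4i1*, *Cox8a* and *Cox8b*.

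Replicate numbers did not pair NT with shFos libraries: same-numbered NT and shFos deviations correlated at -0.17 to 0.12 in kidney and -0.26 to 0.04 in liver, and 0 of 4 correlated best with their own number in either. With a replicate block, 0 members were called in kidney, liver and the difference of the responses, and at an unadjusted p under 0.05 the kidney had 12 higher and 2 lower, the liver 15 higher and the difference 15 lower. Of all genes tested in kidney, 25.4% passed that threshold in either direction with the block. The liver and difference counts are not set here against a share of all genes. Between NT tissues, where same-numbered libraries did deviate together, the block left 42 and 3, not set here against a share of all genes. Of the genes named only *Sdhb* lost its call. Depth limits the scarce isoforms of complex IV, which rest on few reads in liver.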
